A study of Mus musculus with 7 samples.

Results

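S100 proteins are small calcium sensors. The 9 genes *S100a1*, *S100a3*, *S100a4*, *S100a6*, *S100a10*, *S100a11*, *S100a13*, *S100a14* and *S100a16* were followed in mouse tumors with or without a guide RNA against *Krt19*. Members were the rows of the expression table whose gene name was one of these 9 symbols, and all 9 were found among 38026 genes. RNA was sequenced from 7 subcutaneous tumors that were taken 2 weeks after pancreatic ductal adenocarcinoma (PDA) cells were inoculated into C57BL/6 mice, which the study obtained at an age of 6 weeks and kept for 2 weeks before its experiments. All tumors grew from the KPC cell line 1242, which came from a tumor of a Pdx1-Cre mouse with LSL-Trp53 R172H/+, in which the pancreatic Pdx1 promoter drives Cre. All cells had received Cas9 and a guide RNA by lentivirus, and the tumors were not treated. The guide was a scrambled one in 4 tumors (sgScramble, replicates 1 to 4) and one against *Krt19* in 3 tumors (sgKrt19, replicates 5, 6 and 8). The study made its lines with several guides, both as polyclonal populations and as single-cell clones, and does not state which of them grew the sequenced tumors. The question here is which S100 genes differed between sgKrt19 and sgScramble tumors, and by how much.

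An S100 protein usually works as a dimer with a pair of calcium-binding EF-hand loops in each chain. Calcium turns out a hydrophobic surface that then holds a target protein, such as an annexin, a myosin or a receptor. Epithelial cells, among them pancreatic cancer cells, make several of these proteins at high levels, and others are known from fibroblasts, muscle, glia or neutrophils. *Krt19*, by contrast, encodes a keratin of simple epithelia.

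The 9 genes lie in 1 cluster on chromosome 3, between *S100a1* at chr3:90511034-90514392 and *S100a10* at chr3:93555080-93564643 (mouse build mm10, GRCm38; GENCODE M21). *S100a1* is read from the minus strand and the other 8 from the plus strand. Their transcripts are short, at 498 bases for *S100a4* to 1127 bases for *S100a16*. *S100a1* and its neighbor *S100a13* point away from each other, and the annotated starts, 90514392 and 90514435, leave 42 bases between them. RefSeq starts *S100a1* further in, at 90514330, with 104 bases between the starts. These bases are shown because both genes, described first below, begin at their edges. The sequence is from RefSeq for GRCm38.p6 and is written along the plus strand.

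S100a1 and S100a13, chr3:90514393-90514434: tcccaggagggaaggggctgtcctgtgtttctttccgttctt

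RefSeq promoter sequences were matched for 7 of the 9 genes, with *S100a10* and *S100a14* not matched. Motifs searched on both strands of the 300 bases around a start were the AP-1 motif TGANTCA, the TEAD motif GGAATG and the GC box GGGCGG. Of 32851 mouse promoters of that length, 7.81% held the AP-1 motif, 14.7% the TEAD motif and 35.7% the GC box. The windows of *S100a1* and *S100a13* held none of these motifs. Only *S100a11* and *S100a16* held the AP-1 motif. The 250 bases before their starts, on the plus strand, are shown to set these windows beside the bare stretch above, with AP-1 motifs and GC boxes in capitals. A match is only a match of letters.

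S100a11, chr3:93520246-93520495: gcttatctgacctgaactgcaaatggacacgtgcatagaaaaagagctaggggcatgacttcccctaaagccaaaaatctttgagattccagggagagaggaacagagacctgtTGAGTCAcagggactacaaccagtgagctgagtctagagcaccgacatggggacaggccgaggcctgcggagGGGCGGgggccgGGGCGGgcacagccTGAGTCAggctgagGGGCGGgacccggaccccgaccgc

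S100a16, chr3:90540896-90541145: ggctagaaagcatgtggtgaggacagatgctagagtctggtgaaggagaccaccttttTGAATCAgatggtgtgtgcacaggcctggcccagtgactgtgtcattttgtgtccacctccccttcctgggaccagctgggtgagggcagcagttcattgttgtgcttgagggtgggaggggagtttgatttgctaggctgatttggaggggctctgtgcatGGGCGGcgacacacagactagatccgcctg

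The *S100a11* stretch holds 2 AP-1 motifs and 3 GC boxes, and that of *S100a16*, which is one of its 2 annotated starts, holds 1 of each. The window of the other *S100a16* start, chr3:90537004-90537303, held none of the motifs searched, like those of *S100a1* and *S100a13*. The 3 motifs do not overlap one another in either stretch.

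All values below are normalized read counts, that is, the reads of a gene over the size factor of its library, and each mean is given ± the SD across its group. The libraries held 40781199 to 44972100 reads. *Krt19* itself was at 17841 to 27619 in sgScramble libraries and at 1606 to 2470 in sgKrt19 libraries, so the targeted gene separated the groups as labelled (log2 fold change −3.52, limma adjusted p = 1.74e-05). Differences were tested with limma on log2(value + 1) over the 21322 genes that reached 10 in 3 or more libraries, with adjusted p under 0.05 as the call. The tumors are bulk tissue, so that fewer cells of a type and less RNA per cell cannot be told apart. The p-values measure the spread between these 7 tumors, and no batch of sequencing is given in the labels.

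All 9 S100 genes passed the filter. *S100a1*, *S100a13* and *S100a10* rose in sgKrt19 tumors, by log2 fold changes of 0.61 to 0.63. By limma 0 of 9 fell, and the 4 with an unadjusted p under 0.05 were all higher. edgeR called 3 higher and DESeq2 4, and both called 0 lower. Among all tested genes 34.0% were called in either direction, 3820 genes (17.9%) higher and 3420 lower. The 3 S100 genes, 33.3% of the 9, thus stand against 17.9% for higher genes. Counted in either direction, their share is close to that of all genes. The log2 fold change was above 0 for 7 of the 9, against 50.5% of all genes, and its median was 0.46, against 0.01. The 4 sgScramble and 3 sgKrt19 values did not overlap for 2 of the 9, against 41.1% of all genes in either direction and 21.7% with sgKrt19 higher. Both of the 2 were higher in sgKrt19, a share close to that of all genes. All 3 calls were lost when libraries were scaled by their size alone, which moved the median of all genes to −0.21 and left 27.7% of all calls higher, against 52.8% with the deposited scaling. They were also lost when transcript length and GC content were regressed out of each library. Under both of these settings 6 of the 9 were above 0.

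**Figure D1:**
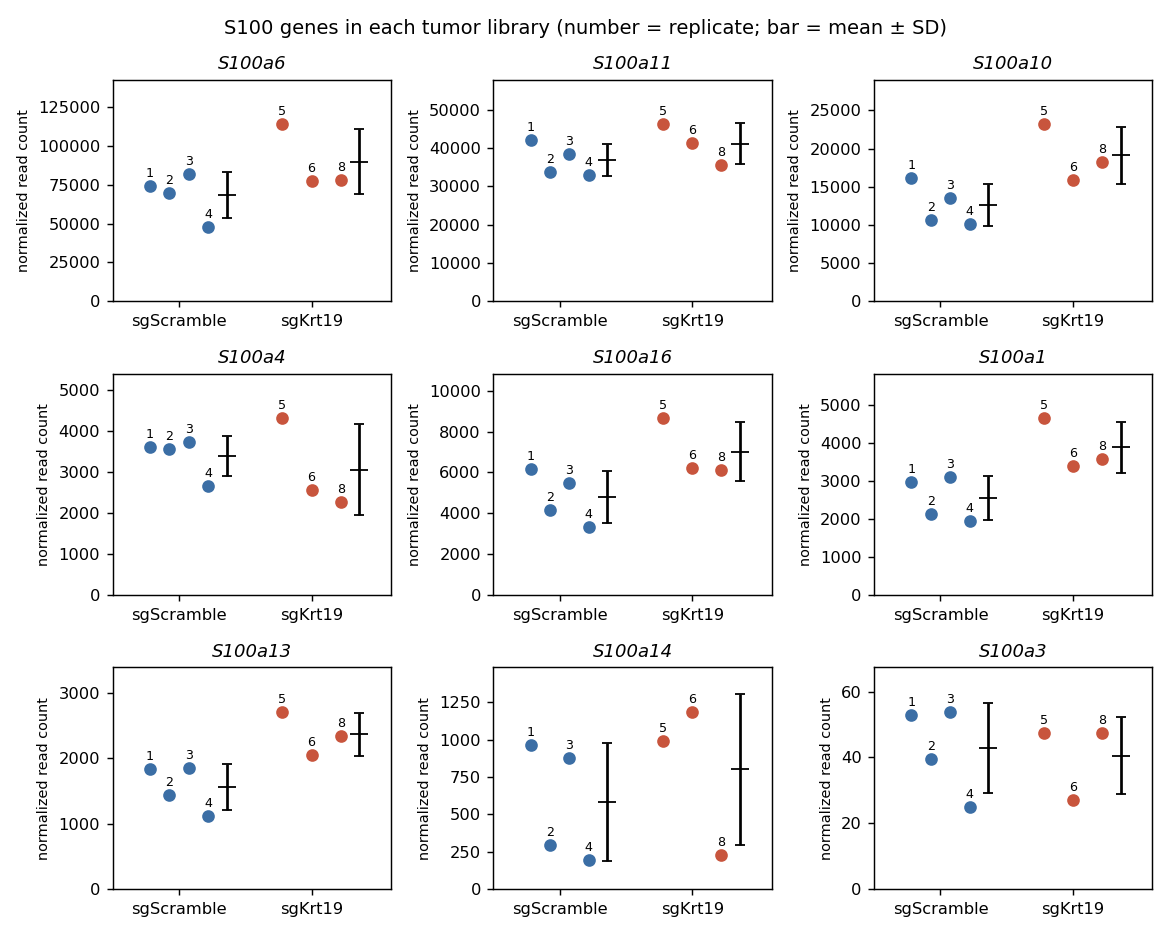
Normalized read count (linear axis from 0) of each S100 gene in 4 sgScramble (blue) and 3 sgKrt19 (red) libraries; numbers are replicates, and the bar beside each group is its mean ± SD. The groups do not overlap for *S100a1* and *S100a13*, sgKrt19 replicate 5 is highest of its group for 8 of 9 genes, and sgScramble replicate 4 is lowest of its group for 9 of 9.

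*S100a1*, known for binding the ryanodine receptor and other calcium pumps and channels of muscle, was at 2976, 2143, 3102 and 1955 in sgScramble replicates 1 to 4 and at 4665, 3409 and 3591 in sgKrt19 replicates 5, 6 and 8. Every sgKrt19 library lay above every sgScramble library. The means were 2544 ± 579 (n = 4) and 3888 ± 679 (n = 3), and limma put the log2 difference at 0.63 (SE 0.18, limma adjusted p = 0.0253). With length and GC content regressed out it was 0.36 (limma adjusted p = 0.0563), and with library size as the only scaling it was 0.41 (limma adjusted p = 0.0660). The call also did not hold without sgScramble replicate 2 or 4 or sgKrt19 replicate 5, with limma adjusted p = 0.0709, 0.0578 and 0.0989. Skeletal muscle markers moved with it. All 12 of 12 tested rose, and their summed level was 298 to 2850 in sgScramble and 23194 to 32466 in sgKrt19 tumors. The highest of the sgScramble sums, 2850, was in replicate 3 and the lowest, 298, in replicate 1, and *S100a1* was at 3102 and 2976 in these libraries. The part of muscle RNA in the *S100a1* difference was not tested.

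*S100a13*, known for helping FGF1 and interleukin-1α leave the cell without a signal peptide, was at 1837, 1432, 1849 and 1116 in sgScramble and at 2714, 2050 and 2336 in sgKrt19 libraries. Here too the groups were apart, and the 7 libraries stood in the same order as for *S100a1*. The means were 1559 ± 353 and 2367 ± 333, and limma put the log2 difference at 0.62 (SE 0.18, limma adjusted p = 0.0253). It became 0.36 with length and GC content regressed out (limma adjusted p = 0.0562) and 0.41 with library size only (limma adjusted p = 0.0698). The call did not hold without sgScramble replicate 2 or sgKrt19 replicate 5 or 8, with limma adjusted p = 0.0649, 0.0950 and 0.0632. *S100a1* thus differed from *S100a13* within a library by about the same amount in all tumors. The log2 ratio of *S100a1* to *S100a13* was 0.71 ± 0.10 among sgScramble and 0.71 ± 0.08 among sgKrt19 tumors, and its range over the 7 libraries was 0.58 to 0.81. The difference of the ratios was 0.0035 (exact two-sided permutation test, p = 0.971).

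By the root mean square difference of log2 values, each centered on its gene over the 7 libraries, the genes most like *S100a1* were *Rpl14-ps1*, a ribosomal protein pseudogene (0.05), *Timm13*, a chaperone of mitochondrial import (0.05), and *Sdhaf1*, an assembly factor of succinate dehydrogenase (0.06). Those most like *S100a13* were *Golt1a* (0.05), again *Timm13* (0.05), and the mitochondrial ribosome gene *Mrpl57* (0.06). The median over all genes was 0.49 for both. *Timm13* was at 1817, 1368, 1820 and 1157 in sgScramble and 2882, 2035 and 2349 in sgKrt19 libraries.

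**Figure D2:**
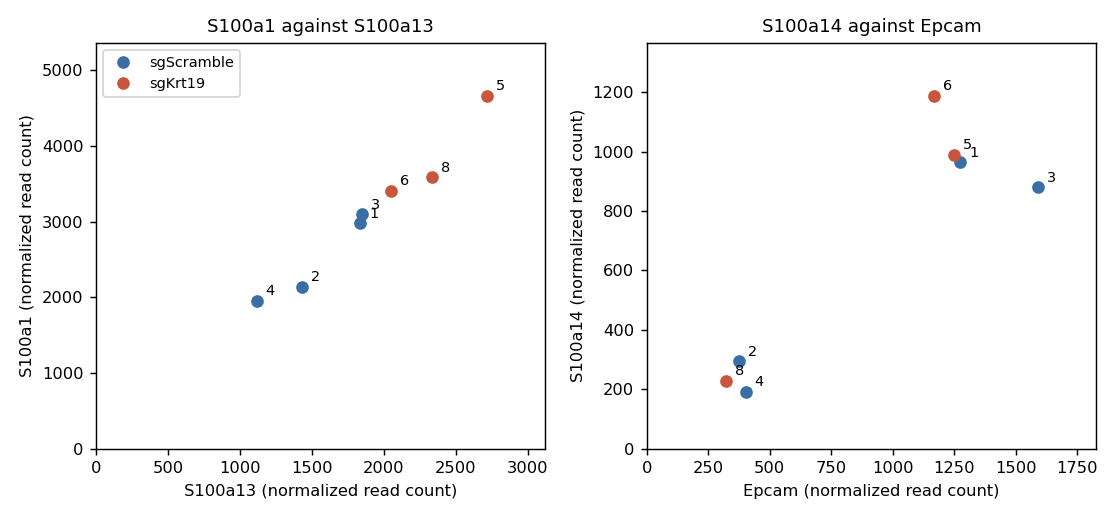
Normalized read counts of pairs of genes in the 7 libraries (both axes linear from 0, sgScramble blue, sgKrt19 red, numbers are replicates). *S100a1* and *S100a13*, left, run together, with log2 ratios of 0.58 to 0.81; *S100a14* and *Epcam*, right, are both low in sgScramble replicates 2 and 4 and sgKrt19 replicate 8.

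*S100a10*, or p11, holds annexin A2 in a heterotetramer at the plasma membrane and is unusual in needing no calcium. It was at 16115, 10704, 13561 and 10112 in sgScramble and at 23213, 15885 and 18216 in sgKrt19 libraries. The groups overlapped by 1 pair, with sgScramble replicate 1 just above sgKrt19 replicate 6. The means were 12623 ± 2773 and 19105 ± 3744, and limma put the log2 difference at 0.61 (SE 0.19, limma adjusted p = 0.0327). It was 0.33 with length and GC content regressed out (limma adjusted p = 0.0940) and 0.39 with library size only (limma adjusted p = 0.0733). The call was also lost without sgScramble replicate 2 or 4 or sgKrt19 replicate 5 or 8, with limma adjusted p = 0.0918, 0.0792, 0.120 and 0.0688. Its partner gene *Anxa2* was at 42507 to 61380 in sgScramble and at 74566 to 90877 in sgKrt19 libraries, and rose by 0.66 on the log2 scale (SE 0.17, limma adjusted p = 0.0167). The log2 ratio of *S100a10* to *Anxa2* was −2.05 ± 0.12 and −2.10 ± 0.17, a difference of −0.05 (exact two-sided permutation test, p = 0.629).

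*S100a11*, which binds annexin A1, was at 42197, 33859, 38513 and 33030 in sgScramble and 46306, 41440 and 35647 in sgKrt19 libraries. Values interleaved, and the log2 fold change was 0.16 (95% interval −0.19 to 0.50; limma adjusted p = 0.455). Its sign turned with the scaling, at −0.06 with library size only and −0.10 with length and GC content regressed out. *Anxa1* was at 9745 to 13374 and 11811 to 14558, 0.20 apart on the log2 scale (limma adjusted p = 0.289). The log2 ratio of *S100a11* to *Anxa1* was 1.70 ± 0.05 for sgScramble and 1.65 ± 0.16 for sgKrt19 tumors, a difference of −0.04 (exact two-sided permutation test, p = 0.743). With 4 libraries against 3 the smallest p of this test as run is 0.0571, so that no pair could pass at 0.05. After adjustment over the 3 pairs all p were 0.971.

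*S100a6*, or calcyclin, binds annexin A11 and the calcyclin-binding protein *Cacybp*. It was at 74467, 69519, 82222 and 47547 in sgScramble and at 114074, 77337 and 78302 in sgKrt19 libraries. One high sgKrt19 library and one low sgScramble library stood out while the others lay between 69519 and 82222. The log2 fold change was 0.40 (95% interval −0.11 to 0.91; limma adjusted p = 0.201), so that no difference and one near 0.91 both lay within the error.

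*S100a4*, a partner of non-muscle myosin IIA that is best known from mesenchymal cells and from metastasis, was at 3607, 3561, 3723 and 2672 in sgScramble and 4324, 2564 and 2269 in sgKrt19 libraries. Replicate 5 was the highest of all 7 and replicates 6 and 8 the lowest, with a log2 fold change of −0.20 (95% interval −0.67 to 0.27; limma adjusted p = 0.485). Another gene model on the same strand, *Gm42674*, shares 51.7% of the exon bases of *S100a4* and was at 77.6% to 83.7% of the *S100a4* value in every library. The values of *S100a4* are uncertain to the extent that reads of shared exons were divided or counted at both. *Myh9*, which encodes the heavy chain of that myosin, was at 27106, 39022, 27651 and 41341 in sgScramble and 19443, 27320 and 23428 in sgKrt19 libraries (log2 fold change −0.52, limma adjusted p = 0.0635).

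*S100a16*, which is broadly expressed in epithelia, was at 6166, 4141, 5461 and 3354 in sgScramble and 8671, 6226 and 6136 in sgKrt19 libraries. The lowest sgKrt19 library, at 6136, lay below the highest sgScramble library, at 6166, and the log2 fold change of 0.57 ± 0.21 (SE) did not pass (limma adjusted p = 0.0582). It passed with DESeq2 (adjusted p = 0.0425) and without sgScramble replicate 1 or 3, with limma adjusted p = 0.0233 and 0.0487.

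*S100a14*, an S100 protein of epithelial tissues, was the most variable of the 9. It was at 965, 295, 880 and 192 in sgScramble and at 990, 1188 and 229 in sgKrt19 libraries. Both groups held high and low libraries, with 1, 3, 5 and 6 at 880 to 1188 and 2, 4 and 8 at 192 to 295. The log2 fold change of 0.46 had a 95% interval of −1.0 to 1.92 (limma adjusted p = 0.607), wide enough to hold a change either way. The gene with the most similar profile was *Epcam*, an epithelial adhesion molecule, which was at 1273, 376, 1588 and 402 in sgScramble and 1247, 1169 and 322 in sgKrt19 libraries. Its root mean square difference from *S100a14* was 0.33, against a median of 1.10 over all genes. *Cwh43* (0.33) and *Lama3* (0.38), a laminin chain of epithelial basement membranes, came next. These neighbors were looked up after the values had been seen. The order of *Cdh1*, or E-cadherin, was another, with its 3 highest values in the 3 sgKrt19 libraries, at 34406 to 42053, against 24121 to 27150 in sgScramble libraries. What varied between tumors along with *S100a14* was not tested.

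*S100a3*, known from the cuticle of hair, was the lowest at 53, 40, 54 and 25 in sgScramble and 47, 27 and 47 in sgKrt19 libraries. The ranges overlapped nearly whole (log2 fold change −0.06, 95% interval −0.80 to 0.67; limma adjusted p = 0.900). *Gm42674*, at 1805 to 3355, also shares 144 exon bases with *S100a3* on the same strand. The low values of *S100a3* are uncertain to the extent that reads of these bases were counted there. The identifier of *S100a3* has another version in GENCODE M21, so its transcript length is that of the other version. Hair follicle markers, 12 in number, were uneven between tumors. Their summed level was 368.6 in sgKrt19 replicate 8 and 46.0 to 153 in the other 6 libraries. The hair keratins *Krt25* and *Krt71* were listed at 0 in all sgScramble libraries and were at 78.8 and 90.3 in that replicate, where *S100a3* was at 47. Without it the log2 fold change of *S100a3* was −0.19, and the part of hair follicle RNA in its values was not tested.

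**Figure D3:**
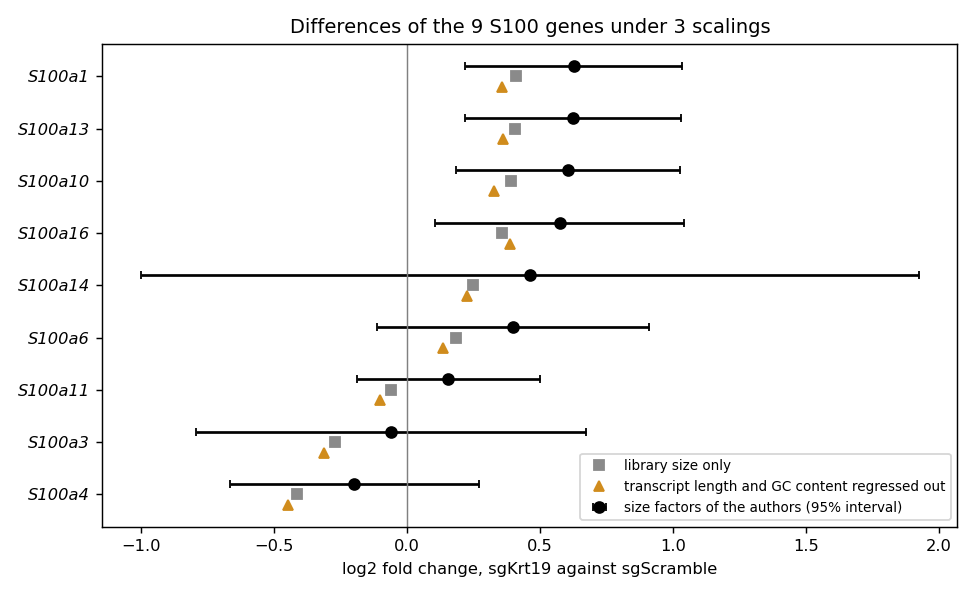
Log2 fold change of the 9 S100 genes, sgKrt19 against sgScramble, with the deposited size factors (black, bars are 95% intervals), with library size only (gray squares) and with transcript length and GC content regressed out (orange triangles). *S100a1*, *S100a13* and *S100a10* lie at 0.61 to 0.63 with the deposited scaling and at 0.33 to 0.41 with the others; *S100a11* crosses 0.

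Levels of different genes were compared per kilobase of transcript. *S100a6* was highest at 93623 ± 20351 in sgScramble and 122988 ± 28642 in sgKrt19 libraries, followed by *S100a11* at 72212 ± 8370 and 80491 ± 10443. The libraries of these neighbors overlapped in sgScramble tumors and not in sgKrt19 tumors. *S100a10* came next at 18428 ± 4048 and 27890 ± 5466, apart from both its neighbors in each group. *S100a4*, *S100a16* and *S100a1* followed, at means of 3758 to 6808 in sgScramble and 5743 to 6221 in sgKrt19 libraries, and each overlapped with the next in both groups. *S100a13*, *S100a14* and *S100a3* closed the order, at 2180, 551 and 60.2 in sgScramble and 3310, 758 and 57.0 in sgKrt19 libraries. The sum over the 9 genes was 201861 ± 33900 and 253587 ± 47808.

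Shares of that sum within a library do not depend on the scaling between libraries. *S100a6* made up 46.1% ± 3.9 in sgScramble and 48.3% ± 2.3 in sgKrt19 tumors, and *S100a11* made up 36.1% ± 3.5 and 32.0% ± 3.0. *S100a4* made up 3.39% ± 0.23 of it in sgScramble but 2.37% ± 0.40 in sgKrt19 tumors. The shares of *S100a1*, *S100a13* and *S100a16* went the other way, from 1.85% ± 0.16 to 2.27% ± 0.10, from 1.07% ± 0.07 to 1.32% ± 0.13, and from 2.08% ± 0.24 to 2.45% ± 0.04. For these 4 genes the groups did not overlap, which gives the smallest p that the test as run allows (exact two-sided permutation test, p = 0.0571). Adjusted over the 9 shares, the p of these 4 was 0.129. As run, the test could not have called any share, so it cannot tell whether the shares differed. *S100a10* was at 9.11% ± 0.95 and 11.01% ± 0.94 (exact permutation p = 0.114), and the other 4 shares had p of 0.171 to 0.8.

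Short transcripts as a class differed between these libraries, and the S100 genes are short. The median log2 fold change was 0.22 for transcripts of up to 1000 bases, 0.12 between 1000 and 2000, −0.02 between 2000 and 4000 and −0.19 for longer ones. Of the genes with up to 1000 bases 23.5% were called higher, against 10.6% of those with over 4000. The same order appeared among libraries of 1 group. Transcripts of up to 1000 bases deviated from their group mean by medians of 0.15, −0.06, 0.08 and −0.14 in sgScramble replicates 1 to 4 and 0.15, −0.12 and −0.06 in sgKrt19 replicates 5, 6 and 8. The 9 S100 genes deviated by medians of 0.27, −0.12, 0.28 and −0.45, and of 0.30, −0.19 and −0.17, in the same libraries, with the same signs. Replicate 4 was the lowest sgScramble library for 9 of 9 S100 genes, for 47.0% of genes with short transcripts and for 29.5% of all. Replicate 5 was the highest sgKrt19 library for 8 of 9, for 56.3% of short transcripts and for 8528 of all 21322 genes. The part of transcript length in the S100 differences was not tested beyond the regression above, under which no S100 gene was called.

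**Figure D4:**
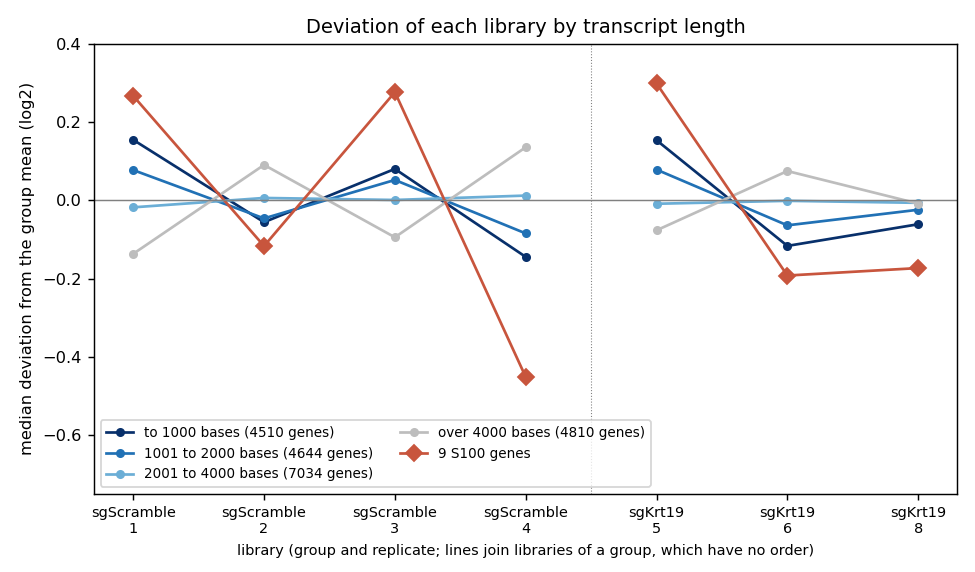
Median deviation from the group mean (log2) in each library for genes in 4 classes of transcript length (blue to gray) and for the 9 S100 genes (red); lines join libraries of a group and imply no order. Short transcripts and the S100 genes are above 0 in sgScramble replicates 1 and 3 and sgKrt19 replicate 5 and below 0 in the other 4 libraries, and transcripts over 4000 bases mostly mirror them.

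Of 8 other S100 genes listed, 7 were in the table, 5 passed the filter and 4 rose. *S100a8* and *S100a9*, the chains of calprotectin in neutrophils, monocytes and stressed epithelium, showed the largest differences. *S100a8* was at 65.2 to 113 in sgScramble and 205 to 292 in sgKrt19 libraries (log2 fold change 1.499, limma adjusted p = 0.00148). *S100a9* was at 87.0 to 166 and 282 to 403 (1.44, limma adjusted p = 0.00158). Neutrophil markers moved with them, with 5 of 7 tested higher and none lower, and summed levels of 805 to 1624 and 2292 to 2446. The part of neutrophils in the calprotectin difference was not tested.

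*S100b*, known from glia and Schwann cells and also made in other tissues, was at 427 to 639 and 822 to 1662 (log2 fold change 1.22, limma adjusted p = 0.00320). Of the Schwann cell markers 5 were tested, and limma called 1, which was lower and was the 1 with an unadjusted p under 0.05, with summed levels of 1033 to 1657 in sgScramble and 780 to 930 in sgKrt19 libraries. *S100g*, the vitamin D-dependent calbindin, was at 97.8 to 151 and 155 to 406 (log2 fold change 1.14, limma adjusted p = 0.0161). *S100a7a* was at 17.4 to 31.6 and 7.0 to 18.5 (log2 fold change −0.87, limma adjusted p = 0.0964). *S100a5*, at 0 to 7.43, and *S100z*, at 0 to 3.47, were too low to be tested.

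Among 19 listed binding partners of S100 proteins, 17 were tested, 6 were higher and 1 was lower, with a median log2 fold change of 0.28. Higher besides *Anxa2* were *Anxa11* and *Cacybp*, both partners of *S100a6*. The lower one was *Anxa6* (log2 fold change −1.02, limma adjusted p = 0.000392), and the listed partner *Sugt1* was not called (0.28, limma adjusted p = 0.130). *Anxa11* was at 2962 to 4598 in sgScramble and 6591 to 7873 in sgKrt19 libraries (log2 fold change 1.03, limma adjusted p = 0.000852), and *Cacybp* was at 2024 to 3147 and 3610 to 3811 (0.60, limma adjusted p = 0.0106). *Tlr4*, a receptor of calprotectin, was also higher (0.85, limma adjusted p = 0.00132), as was *Ncl*, or nucleolin (0.44, limma adjusted p = 0.0281). *Ryr1*, the ryanodine receptor of skeletal muscle to which *S100a1* binds, was at 17.6, 10.9, 113 and 16.7 in sgScramble and 713, 631 and 559 in sgKrt19 libraries (4.61, limma adjusted p = 0.000578). It was raised in the sgScramble library with the highest muscle markers. *Ahnak*, a large scaffold that binds the *S100a10* and annexin A2 complex, was not called (−0.29, limma adjusted p = 0.225), nor was *Ager*, the receptor RAGE (−0.73, limma adjusted p = 0.0560).

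The 12 annexins were all tested, and 5 were higher and 1 lower, with a median log2 fold change of 0.31. The largest difference was that of *Anxa10*, at 1690 to 2905 and 7793 to 9221 (1.82, limma adjusted p = 9.8e-05), ahead of *Anxa11*. *Anxa6*, the one that fell, was at 6476 to 8666 and 3271 to 3992 (−1.02, limma adjusted p = 0.000392). Of 15 other EF-hand sensors 11 were tested, 4 higher and 1 lower, with a median of 0.23. Among those higher were *Pvalb*, or parvalbumin of fast muscle (6.15), *Efhd2* (0.79) and *Pdcd6* (0.48), and the one lower was *Rcn1*, a reticulocalbin (−1.10). *Pvalb* was at 0.93, 0.99, 16.4 and 0 in sgScramble and at 254, 115 and 282 in sgKrt19 libraries. Its sgScramble values in replicates 1, 2 and 4 were under the floor of 3 reads, so the size of its fold change is uncertain.

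**Figure D5:**
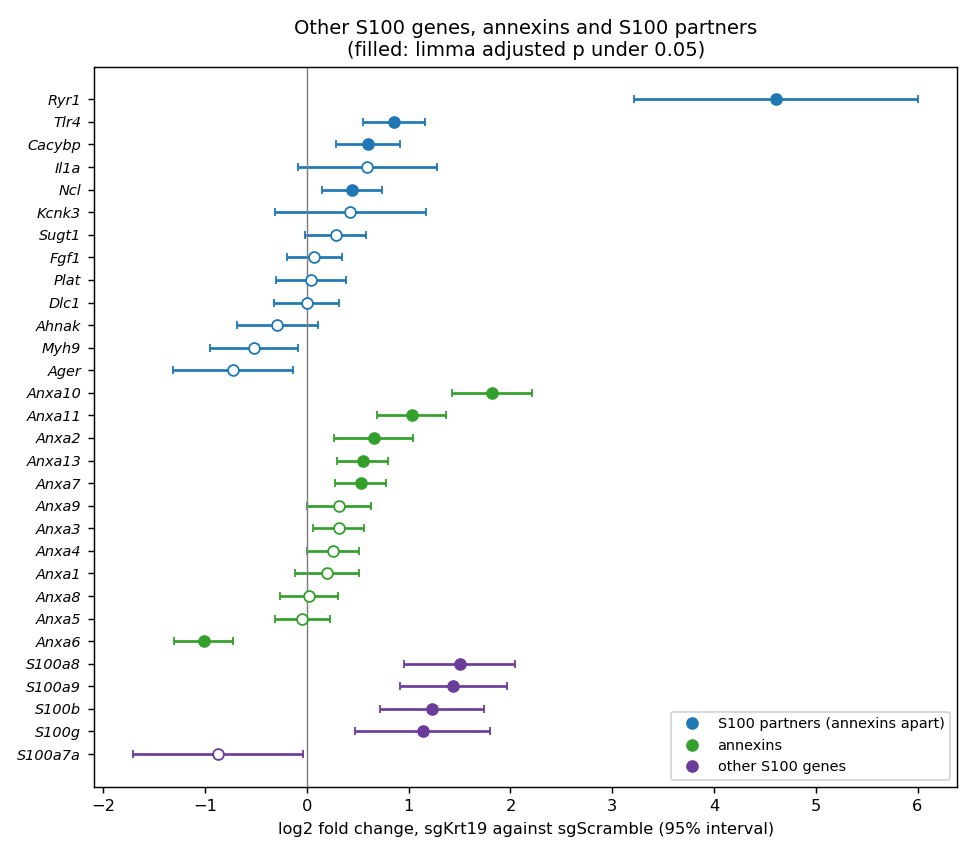
Log2 fold change, sgKrt19 against sgScramble, of other S100 genes (purple), annexins (green) and further S100 partners (blue) that were tested; bars are 95% intervals and filled points passed at a limma adjusted p under 0.05. *S100a8*, *S100a9*, *S100b* and *S100g* lie at 1.14 to 1.499, and *Anxa6* is the 1 filled point below 0.

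The S100 cluster spans other genes of the epidermal differentiation complex. Of 24 other tested genes between *S100a1* and *S100a10*, 12 were higher and 3 lower, with a median log2 fold change of 0.40. On the rest of chromosome 3, 123 of 1060 tested genes (11.6%) were higher and 314 lower, with a median of −0.21. Over all 21322 tested genes, 3820 (17.9%) were higher and 3420 lower, with a median of 0.01, so that the rest of this chromosome lay below all genes. The genes between include the *Sprr2* group of cornified envelope proteins, whose close copies may share reads, and involucrin, *Ivl* (1.57, limma adjusted p = 0.00890). They also include loricrin, *Lor*, which was lower (−1.51, limma adjusted p = 0.0262). *S100a8* and *S100a9* are 2 of the 12. *Gm5850* and *Gm5851*, also among the 12, had the same log2 fold change (0.45) and limma adjusted p (0.0456), so they may not be separate results.

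Markers of the cells that could bring S100 RNA into the tumor were counted in the same fit. Of 12 epithelial markers 6 were higher and none lower, and all 12 were detected. Their summed levels were 130307 to 181214 in sgScramble and 274518 to 279845 in sgKrt19 libraries. Most of these sums came from the keratins *Krt8*, at 46646 to 65462 and 95718 to 112985, and *Krt18*, at 39289 to 57017 and 93269 to 98149. *Krt7*, *Cldn4* and *Esrp1* had log2 fold changes of −1.03, −1.23 and −1.22 and were not called. Fibroblasts are a known source of *S100a4*, and limma called 0 of their 10 markers (1 had an unadjusted p under 0.05, and edgeR called 1 and DESeq2 2), with sums of 116321 to 266383 and 126969 to 149172. Of 12 skin keratinocyte markers 6 were tested, 2 higher and 1 lower, with a median log2 fold change of 0.004. Their sums of 282 to 536 and 667 to 838 differed mostly by *Ivl*, which alone was at 78.8 to 254 and 356 to 582. Of 10 T cell markers 9 were higher and none lower, with sums of 677 to 1249 and 3428 to 6240. Macrophage markers were mixed, with 4 of 11 higher and 1 lower, adipocyte markers showed 1 of 7 higher and endothelial markers 4 of 8. Of the hair follicle markers only *Tchh* passed the filter, and it was lower (log2 fold change −1.16), while the hair keratins were present mainly in sgKrt19 replicate 8, as above. The sgScramble library that was lowest for all 9 S100 genes, replicate 4, held the highest fibroblast sum of its group, 266383, against 116321 to 172124. It also held the lowest epithelial sum, 130307, but the markers in that sum were divided. *Krt7*, *Krt8*, *Krt18*, *Cldn4*, *Esrp1*, *Elf3* and *Grhl2* were lowest of their group in replicate 4. *Epcam*, *Cldn7*, *Muc1* and *Spint1* were not, and *Cdh1* was highest of its group there, at 27150. The part of cell composition in the S100 differences was not tested.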

How the data were processed

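RNA-seq was done on 7 tumors, 4 sgScramble and 3 sgKrt19. The authors deposited 1 table of normalized read counts, a signal equal to reads divided by a size factor. Each value was a whole multiple of 1 read, within 0.05, for 100% of values in every library. The labels give the build as mm10, and the aligner and counter are not given in the sources used here. The labels name polyA RNA and the study a total RNA kit, so the selection of RNA is uncertain. Of the gene identifiers, 97.7% had the same version in GENCODE M21.

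Limma (3.58.1, R 4.3.3) with a trend was fitted to log2(value + 1), which understates changes of low genes, for genes with values of at least 10 in 3 libraries, with Benjamini-Hochberg adjustment over all 21322. The script was tested on simulated data. edgeR (4.0.16) and DESeq2 (1.42.0) on recovered reads, other pseudocounts, filters and scalings, and leaving out each library were alternatives. edgeR called 7188 genes. Exact permutation tests used scipy 1.17.1. Of a repeated symbol the row listed first was used. The members and lists were chosen with earlier results of these data known. Genes named were the members, other S100 genes, set partners, the largest changes of each list and the nearest profiles of *S100a1* and *S100a13*. *Cdh1*, *Epcam*, *Cwh43*, *Lama3*, *Krt8*, *Krt18*, *Krt25*, *Krt71* and the genes between members were added after values were seen. Protein sequences were not used here. An allele of the cell line and a listed gene are not reported here. A count of 3 reads, 2.74 to 3.47 as a normalized value, was the floor, and covers counting error only.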

Additional observations from a re-analysis of the deposited data

Results flagged for a closer look

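Groups of 4 libraries were searched for a library far from the others, which chance gives in about 1 of 20. Of 45 groups 2 had one, or 4.44%. *S100a4* was at 2672 in sgScramble replicate 4, against 3561 to 3723 in the other 3, the same library that was lowest for all 9 S100 genes. The summed level of the 12 skeletal muscle markers was 2850 in sgScramble replicate 3, against 298 to 367 in the other 3.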

How the results depend on the processing

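No paired analysis was possible because the groups share no replicate number. No S100 gene (0 of 9) was called higher with library size only, with limma without a trend, in a test for a fold above 1.5 (1336 genes called in all) or with length and GC content regressed out. The log2 fold change of *S100a1*, *S100a10* and *S100a13* was 0.41, 0.39 and 0.41 with library size only and 0.36, 0.33 and 0.36 with length and GC content regressed out. It stayed at 0.63, 0.61 and 0.62 in limma without a trend (adjusted p = 0.0582, 0.0631 and 0.0578) and in the fold test. That of *S100a11* turned to −0.061 and −0.101 with library size only and with length and GC content regressed out, and that of *S100a16* was 0.54 with DESeq2. The causes were not tested.

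Without 1 library at a time, the number of S100 genes called was 0 to 4 and that of all genes 4886 to 7739. It was 0 without sgScramble replicate 2 or sgKrt19 replicate 5 and 1 without sgScramble replicate 4 or sgKrt19 replicate 8. Log2 fold changes were 0.49 to 0.73 for *S100a1*, 0.46 to 0.73 for *S100a10*, 0.47 to 0.72 for *S100a13*, 0.41 to 0.71 for *S100a16*, 0.21 to 0.50 for *S100a6* (lowest without sgKrt19 replicate 5), 0.066 to 0.25 for *S100a11* (lowest without sgKrt19 replicate 5, highest without 8), 0.023 to 1.21 for *S100a14* (without sgKrt19 replicates 6 and 8), −0.48 to −0.014 for *S100a4* (without sgKrt19 replicates 5, with limma adjusted p = 0.0501, and 8) and −0.29 to 0.20 for *S100a3*, whose sign turned without sgScramble replicate 1 (0.058) or 3 (0.067) or sgKrt19 replicate 6 (0.20). Differences of log2 ratios were −0.115 to 0.047 for *S100a10* to *Anxa2* (0.047 without sgKrt19 replicate 6), −0.123 to 0.041 for *S100a11* to *Anxa1* (0.041 without sgKrt19 replicate 8) and −0.039 to 0.049 for *S100a1* to *S100a13*, below 0 without sgScramble replicate 1 (−0.00059) or 2 (−0.039) or sgKrt19 replicate 5 (−0.031) or 6 (−0.0073). The difference in the share of *S100a14* was −0.056 to 0.14 percentage points, and −0.0064 without sgScramble replicate 4 and −0.056 without sgKrt19 replicate 6.

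Genes called in lists changed most in the test for a fold above 1.5, to 2 other S100 genes, 1 partner, 1 annexin, 2 EF-hand sensors, 1 epithelial, 1 macrophage and 1 neutrophil marker and 0 skin, hair, adipocyte, endothelial and Schwann cell markers. With library size only, the medians of annexins and EF-hand sensors were 0.097 and 0.011, and 1 fibroblast, 2 macrophage, 3 neutrophil and 2 endothelial markers were called. With length and GC content regressed out the annexin median was 0.20 and 3 macrophage markers were called, and without a trend 3 macrophage, 3 neutrophil and 0 hair markers. With a value of at least 50 required, 1 skin marker was called (median 0.80). With no filter, 3 hair markers were called (median 1.27) and the adipocyte median was 0.052. edgeR called 1 fibroblast marker and gave a muscle median of 5.29, DESeq2 called 2 fibroblast and 2 adipocyte markers with a muscle median of 5.31, and a pseudocount of 10 gave 2 adipocyte calls. Without 1 library at a time, calls ranged from 3 to 5 for EF-hand sensors, 1 to 3 for skin and for Schwann cell markers, 0 to 1 for hair, 0 to 2 for fibroblast, 2 to 5 for macrophage, neutrophil and endothelial and 1 to 4 for adipocyte markers.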
